A study of Arabidopsis thaliana with 87 samples.

Results

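Small RNAs of 18, 19 and 20 nt that matched the RUBY transgene are described here, split by the plus and the minus strand of the transgene sequence. They formed 6 of the 22 length and strand classes (18 to 28 nt on 2 strands) counted in each of 87 Arabidopsis leaf libraries, and were chosen by read length alone. In all they held 1841238 of 20686831 RUBY reads, which is 8.90%, while 21 nt reads held 76.2%. Of the 522 possible values, 521 were above 0. The empty one was 19 nt minus strand reads in the fully red leaves of MK044 number 3, where 3 reads correspond to 3.32 RPM (reads per 1000000 mapped reads). Read sequences and positions within the transgene were not analysed here, and the sources used here do not say which strand is that of the RUBY messenger RNA.

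RUBY encodes enzymes that turn tyrosine into the red pigment betalain, so a leaf that stops expressing it turns green. When a plant silences a transgene, its transcript is copied into double-stranded RNA, which DICER-LIKE (DCL) enzymes cut into small RNAs of both strands. DCL4 makes the 21 nt class and DCL2 the 22 nt class, and both classes load ARGONAUTE proteins that cut matching RNA. Reads shorter than 21 nt can come from trimming of such small RNAs or from breakdown of the transcript without any Dicer cut. A trimmed class would change in proportion to its 21 nt source, whereas breakdown fragments need not. The comparison with 21 nt reads describes this movement. Movement in proportion does not by itself tell these origins apart, because fragments of all lengths can also change together.

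All libraries came from leaves of plants 4 weeks old. With the 35S promoter, which is taken from cauliflower mosaic virus, the wild-type accession Col-0 gave always green plants (2 libraries), fully green leaves (9), green parts of leaves (13), red parts (13), fully red leaves (13) and always red plants (11). Another 8 libraries came from always red 35S plants mutated in the DCL genes (dcl1234). Under ZmUBQ, named for a maize ubiquitin promoter, Col-0 gave fully green leaves (7 libraries), fully red leaves (7) and always red plants (4). The 16 transgenic events limit these groups, because fully green 35S leaves came from 6 events, fully red leaves and both kinds of parts from 8 each, always red plants from 6, dcl1234 and always red ZmUBQ plants from 2 each, the other ZmUBQ groups from 3, and always green plants from 1 event. Libraries are named by event and label number.

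Mapped reads ranged from 0.905 to 31.4 M per library (1 M is 1000000 reads), with a median of 15.4 M, and 3 reads corresponded to a median of 0.195 RPM. The fully red library of MK044 number 3 stood apart as the shallowest, with 121 plus and 4 minus strand reads of 18 to 20 nt, and results that turn on it are given without it as well. Floors and intervals of shares cover counting error only, since sequenced molecules carried no identifiers. Folds are ratios of geometric means of RPM + 1, so they understate changes of low values. All tests are two-sided permutation tests over libraries, exact where a group has fewer than 10, with Benjamini-Hochberg adjustment. The p-values reflect the variation among these libraries, several of which can come from 1 event, and several comparisons share a group. In bulk leaf RNA, fewer cells with such reads and less of them per cell cannot be told apart.

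Fully green 35S leaves carried far more 18 to 20 nt RUBY small RNA than fully red leaves, and more so on the minus strand. On the plus strand, fully green leaves ranged from 631 to 3531 RPM with a median of 1153 RPM, against 53.6 to 213 RPM with a median of 118 RPM in fully red leaves. Minus strand reads ranged from 1034 to 4706 RPM (median 1965) in fully green leaves and from 4.42 to 263 RPM (median 25.6) in fully red leaves. The groups did not overlap on either strand: all 9 green libraries lay above all 13 red ones. Plus strand reads were 11.5-fold higher (95% interval 7.39 to 17.9; exact permutation p = 2.01e-06, adjusted p = 2.01e-05). Minus strand reads were 52.3-fold higher (95% interval 21.8 to 125; adjusted p = 2.01e-05). By edgeR's quasi-likelihood fit to the counts the minus strand fold was smaller, at 33.7.

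All 6 member classes were called higher in fully green leaves, at adjusted p under 0.05 over the tests of every class, as were all 22 classes (100% of classes called). The plus strand folds grew with length, from 6.40 at 18 nt to 11.9 at 19 nt and 14.1 at 20 nt. Those of the minus strand were 41.3, 50.1 and 51.2. A member count of 6 does not set these lengths apart from the others here.

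Green parts held more 18 to 20 nt reads than red parts of leaves, with a wide spread in red parts. Plus strand reads ranged from 187 to 3649 RPM (median 1077) in green parts and from 94.9 to 3136 RPM (median 165) in red parts. Minus strand reads ranged from 277 to 5259 RPM (median 1780) in green parts and from 64.0 to 3771 RPM (median 179) in red parts. The groups overlapped, since red parts of MK016 number 5 exceeded 12 of 13 green parts libraries on each strand, and green parts were higher in 12 of 13 pairs, all but that one. Green parts stood 3.62-fold above red parts on the plus strand (95% interval 1.66 to 7.86; permutation adjusted p = 0.00475) and 5.25-fold above on the minus strand (95% interval 2.20 to 12.5; adjusted p = 0.00176). By edgeR's quasi-likelihood test on the counts the plus strand difference missed the threshold (2.42-fold, adjusted p = 0.0531), and the minus strand fold was 2.97 (adjusted p = 0.0203). All 6 members were called higher, against 86.4% of all classes. By edgeR 4 of 6 were, without 18 and 20 nt on the plus strand (adjusted p = 0.0770 and 0.0628), against 77.3% of classes. The purity of the dissected parts was not tested.

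Red parts in turn held more 18 to 20 nt reads than fully red leaves, mainly on the minus strand. The fold was 2.30 on the plus strand (95% interval 1.21 to 4.41; permutation adjusted p = 0.0126) and 7.12 on the minus strand (95% interval 2.66 to 19.1; adjusted p = 0.00117). Minus strand reads were higher in red parts in 13 of 13 pairs. For the plus strand this held in 11 of 13 pairs, the exceptions being MK042 number 3 and MK044 number 3. The plus strand difference missed the threshold on ranks (permutation adjusted p = 0.0518) and with 1 mean per event (permutation adjusted p = 0.0777), and was 4.30-fold by edgeR. Without libraries under 8 M mapped reads the minus strand difference was 2.20 on the log2 scale, against 2.83 with them. The called members numbered 5, all but 18 nt on the plus strand (1.69-fold, adjusted p = 0.0802), against 68.2% of all classes. With 1 mean per event they numbered 3, against 54.5% of classes.

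Fully green leaves and green parts did not differ in level beyond the spread between libraries. Fully green leaves stood 1.38-fold above green parts on the plus strand (95% interval 0.698 to 2.74; exact permutation adjusted p = 0.337) and 1.40-fold above on the minus strand (95% interval 0.719 to 2.74; adjusted p = 0.323). No member class was called, while 4.55% of all classes were, which is 1 class. At an unadjusted p under 0.05, 0 of the 6 passed either, against 22.7% of all classes, and edgeR called 0 of the 22 classes. In the paired fit over 9 pairs the folds were 1.12 on the plus and 1.11 on the minus strand (sign-flip, exact permutation, adjusted p = 0.508 each). On each strand fully green leaves were higher in 6 of 9 pairs and lower in 3. The intervals of the unpaired test still allow differences of up to 2.74-fold.

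Always red plants served as the reference for fully red leaves. Plus strand reads had a median of 118 RPM in fully red leaves, against 22.96 to 103 RPM with a median of 57.7 RPM in always red plants, and were 1.95-fold higher in fully red leaves (95% interval 1.39 to 2.74; permutation adjusted p = 0.00117). Minus strand reads had a median of 25.6 RPM in fully red leaves, against 4.14 to 20.8 RPM with a median of 12.1 RPM in always red plants, and were 2.92-fold higher in fully red leaves (95% interval 1.37 to 6.24; adjusted p = 0.00953). For these reads 7 of 13 fully red libraries lay above every always red library. With 1 mean per event the minus strand difference missed the threshold (1.45 on the log2 scale, permutation adjusted p = 0.0960), and by edgeR it was 5.32-fold. All 6 members were called higher in fully red leaves, against 86.4% of classes, and 3 with 1 mean per event, against 18.2%.

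Always green plants, from the single event MK017, had the highest group medians of the series. Their libraries held 2908 and 4714 RPM on the plus strand, and 4050 and 6022 RPM on the minus strand. MK017 number 2 lay above every other library on both strands, and MK017 number 1 lay within the range of fully green leaves. With 2 libraries of 1 event no test was made.

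The mutant dcl1234 separated the strands. Plus strand reads of 18 to 20 nt ranged from 80.5 to 115 RPM (median 96.0) in dcl1234, against the 22.96 to 103 RPM of always red Col-0 plants. They were 1.71-fold higher in dcl1234 (95% interval 1.25 to 2.35; exact permutation adjusted p = 0.00359). Minus strand reads ranged from 4.80 to 6.81 RPM (median 6.01) in dcl1234, against 4.14 to 20.8 RPM in Col-0, and were 1.90-fold lower in dcl1234 (95% interval 1.42 to 2.49; adjusted p = 0.00117). In minus strand level 10 of 11 Col-0 libraries lay above all of dcl1234, and the exception was MK034 number 2. Of the members, the 3 plus strand classes were called higher in dcl1234, as were 9 of all 11 plus strand classes (59.1% of classes over both strands). The 3 minus strand classes were called lower, as were 7 of all 11 minus strand classes (36.4% over both strands). Only 2 dcl1234 events stand behind these values, and with 1 mean per event neither strand was called (adjusted p = 0.252 on the plus and 0.0714 on the minus strand).

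The level of single lengths in dcl1234 was nearly even on the plus strand. Mean levels were 31.0 ± 4.02 RPM at 18 nt, 32.2 ± 4.73 RPM at 19 nt and 34.7 ± 4.78 RPM at 20 nt (SD, n = 8). At 21 nt the plus strand held 37.8 ± 4.70 RPM, and at 25 to 28 nt it held 31.6 ± 3.28 RPM per length. Mean plus strand levels at 22, 23 and 24 nt were 37.2, 34.8 and 35.6 RPM. The member lengths thus stood near both their 21 nt neighbour and the longest reads. The highest mean was that of 21 nt, but it barely exceeded that of 22 nt. On the minus strand of the mutant the level rose with length up to 21 nt. It was 0.699 ± 0.111 RPM at 18 nt, 1.99 ± 0.413 RPM at 19 nt, 3.23 ± 0.390 RPM at 20 nt and 6.19 ± 0.540 RPM at 21 nt. Mean levels at 22, 23 and 24 nt were 1.15, 0.433 and 0.885 RPM, so a peak at 21 nt remained on this strand. The minus strand values of 18 to 20 nt rest on 81 to 121 reads per library.

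The ZmUBQ promoter showed the same order of green and red leaves at lower levels. In ZmUBQ fully green leaves, plus strand reads ranged from 55.6 to 671 RPM (median 243), against 20.8 to 37.4 RPM (median 28.3) in ZmUBQ fully red leaves. Minus strand reads ranged from 71.5 to 986 RPM (median 344) in fully green leaves and from 6.15 to 22.1 RPM (median 12.9) in fully red leaves. All 7 green libraries lay above all 7 red ones on both strands. The plus strand was 8.14-fold higher (95% interval 3.63 to 17.4; exact permutation adjusted p = 0.00117) and the minus strand 27.9-fold higher (95% interval 11.5 to 66.4; adjusted p = 0.00117). All 6 members were called higher, against 81.8% of classes. The 3 events allow no call with 1 mean per event (adjusted p = 0.133 on each strand).

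Between promoters, the reads were assigned to different target sequences (the ZmUBQ and the 35S version of the transgene), and this cannot be told apart from the promoter. ZmUBQ fully green leaves were 5.28-fold lower than 35S fully green leaves on the plus strand (95% interval 2.33 to 12.1; exact permutation adjusted p = 0.000699) and 5.80-fold lower on the minus strand (95% interval 2.58 to 13.3; adjusted p = 0.000437). All 6 members were called lower there, as were 100% of classes, and 2 with 1 mean per event, against 72.7%. ZmUBQ fully red leaves were 3.75-fold lower than 35S fully red leaves on the plus strand (adjusted p = 8.6e-05), where the groups did not overlap, and 3.10-fold lower on the minus strand (adjusted p = 0.0284). By edgeR the minus strand difference was -2.47 on the log2 scale, against -1.63 here. The minus strand call ended without ZmUBQ fully red MK055 number 3, MK056 number 5 or MK056 number 6 (adjusted p = 0.0581, 0.0545 and 0.0513), and with 1 mean per event (adjusted p = 0.197). Members called lower numbered 5 of 6, all but 19 nt on the minus strand, against 68.2% of classes, and none was called higher, against 9.09%. With 1 mean per event 3 members were called, against 40.9% of classes.

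In always red plants the 4 ZmUBQ libraries held 17.5, 23.2, 27.7 and 39.5 RPM on the plus strand, where the 35S range was 22.96 to 103 RPM. They were 2.14-fold lower (95% interval 1.30 to 3.54; exact permutation adjusted p = 0.00942), and with 1 mean per event, from 2 ZmUBQ events, this missed the threshold (adjusted p = 0.110). Their minus strand levels were 3.90, 8.27, 12.8 and 13.3 RPM, and the difference from 35S plants stayed within the spread (1.35-fold lower, 95% interval 0.815 to 2.29; adjusted p = 0.247). The plus strand members alone were called lower, 3 of 6 members against 54.5% of classes, and no member was called higher, against 18.2%. The green to red difference itself did not differ detectably between promoters over 7 ZmUBQ and 9 35S pairs, for either strand, the strand share or either ratio to 21 nt (adjusted p from 0.318 to 0.725). On the plus strand level the contrast was 3.02 for ZmUBQ and 3.36 for 35S on the log2 scale.

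Strand balance separated fully green from fully red leaves, while green parts and red parts overlapped. The minus strand share of 18 to 20 nt reads ranged from 57.1 to 63.1% (median 60.5%) in fully green 35S leaves and from 3.20 to 55.3% (median 22.5%) in fully red leaves. The lowest value came from MK044 number 3, whose 4 minus strand reads give a 95% Wilson interval of 1.25 to 7.94%. All 9 green libraries lay above all 13 red ones, and the mean in fully green leaves exceeded that in fully red leaves by 32.4 percentage points (95% interval 20.7 to 44.4; exact permutation adjusted p = 0.0002). Green shares were alike from library to library, with an SD of 2.12 points, while red shares had an SD of 16.6 points. Always green plants had 56.1 and 58.2%.

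In green parts the share was 60.5 ± 2.07% and in red parts 51.4 ± 6.55% (SD, n = 13 each), a difference of 9.11 points (95% interval 5.19 to 13.0; permutation adjusted p = 0.0002, 12 of 13 pairs). Red parts exceeded fully red leaves by 22.97 points (95% interval 12.7 to 33.2; permutation adjusted p = 0.00045, 12 of 13 pairs). Fully green leaves and green parts differed by 0.346 points, within the spread (95% interval -1.52 to 2.24; exact permutation adjusted p = 0.79). In the paired fit over 9 pairs the difference was -0.192 points (sign-flip, exact permutation, adjusted p = 0.648). The mean was 28.4 ± 16.6% in fully red leaves (SD, n = 13) and 17.8 ± 3.74% in always red plants (SD, n = 11), a difference of 10.6 points that missed the threshold (permutation adjusted p = 0.0642). That difference passed without fully red MK041 number 1, MK043 number 2 or MK044 number 3 (11.9, 11.8 and 12.7 points, adjusted p = 0.0371, 0.0385 and 0.0241).

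The lowest group median was that of dcl1234, whose shares ranged from 4.07 to 7.79% with a median of 5.76%, against 11.1 to 23.2% with a median of 16.8% in always red Col-0 plants. The groups did not overlap, and dcl1234 was 12.0 points lower (95% interval -14.9 to -9.12; exact permutation adjusted p = 0.000132). With 1 mean per event this missed the threshold (-11.6 points, adjusted p = 0.0714). Of 21 nt reads, the minus strand held 14.2 ± 1.71% in dcl1234 (SD, n = 8) and 53.7 ± 1.70% in always red Col-0 plants (SD, n = 11). In always red Col-0 plants, then, the plus strand held most reads at 18 to 20 nt and the minus strand most at 21 nt. Fully red leaves had a 21 nt minus strand share with a median of 57.0%, beside 22.5% at 18 to 20 nt, and no test was made between lengths.

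Under ZmUBQ the share was 58.6 ± 1.09% in fully green and 28.8 ± 9.23% in fully red leaves (SD, n = 7 each), a difference of 29.8 points (95% interval 22.2 to 37.4; exact permutation adjusted p = 0.00117) without overlap, which 3 events a group cannot call (adjusted p = 0.153 with 1 mean per event). ZmUBQ fully green leaves were 2.22 points below 35S fully green leaves (exact permutation adjusted p = 0.0385). That call ended in 8 of 16 cases with 1 library left out, namely ZmUBQ MK054 number 3, MK054 number 4, MK056 number 5 and MK056 number 6, and 35S MK016 numbers 3, 4 and 5 and MK043 number 1, with differences from -2.26 to -1.83 points. It also ended with 1 mean per event (adjusted p = 0.153) and for 18 nt or 20 nt reads alone (adjusted p = 0.544 and 0.0605). ZmUBQ fully red leaves did not differ from 35S fully red leaves beyond the spread (0.412 points, 95% interval -14.1 to 14.8; adjusted p = 0.952). ZmUBQ always red plants held 14.4, 25.2, 31.5 and 32.1%, 7.98 points above 35S always red plants (exact permutation adjusted p = 0.0281). This call ended without ZmUBQ MK054 number 1 or MK054 number 2 (5.87 and 6.07 points, adjusted p = 0.117 and 0.110), with 1 mean per event (adjusted p = 0.0714), on ranks (adjusted p = 0.172) and for 20 nt reads alone (adjusted p = 0.216).

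Relative to 21 nt reads of the same strand, 18 to 20 nt reads were scarce in green tissue on both strands. They were plentiful on the plus strand of fully red leaves and always red plants, and less so in red parts. On the plus strand they amounted to 4.94 to 15.7% of 21 nt reads (median 8.31%) in fully green 35S leaves, against 27.5 to 195% (median 48.1%) in fully red leaves. For the minus strand the ranges were 5.31 to 18.97% (median 7.87%) in fully green and 9.24 to 26.7% (median 14.0%) in fully red leaves. The plus strand ranges did not overlap, and the minus strand ranges did. Fully green leaves had a 6.31-fold lower plus strand ratio than fully red leaves (95% interval 4.05 to 9.91; exact permutation adjusted p = 4.02e-05) and a 1.77-fold lower minus strand ratio (95% interval 1.26 to 2.48; adjusted p = 0.00665). In all 9 pairs both ratios were lower in the green member.

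Green parts and red parts were closer to each other. The plus strand ratio ranged from 5.47 to 24.9% (median 10.7%) in green parts and from 5.30 to 30.4% (median 19.03%) in red parts, 1.61-fold lower in green parts (95% interval 1.09 to 2.37; permutation adjusted p = 0.0429). The call ended in 17 of 26 cases with 1 library left out (log2 difference from -0.83 to -0.60 over all 26). It also ended with 1 mean per event (adjusted p = 0.175) and for 20 nt reads alone (adjusted p = 0.0533). With 1 library left out it remained only without green parts of MK016 number 5, MK040 number 2, MK042 number 3 or MK044 number 3, or red parts of MK016 number 4, MK016 number 5, MK025 number 1, MK040 number 1 or MK044 number 3. The minus strand ratio did not differ beyond the spread, with medians of 10.3% and 11.6% in green and red parts (1.14-fold lower, 95% interval 0.796 to 1.62; adjusted p = 0.547).

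Red parts had a 2.93-fold lower plus strand ratio than fully red leaves (95% interval 1.90 to 4.55; permutation adjusted p = 6.62e-05), while the minus strand ratio missed the threshold (1.26-fold lower, 95% interval 0.904 to 1.75; adjusted p = 0.256). Between fully green leaves and green parts neither ratio passed over all libraries (adjusted p = 0.193 and 0.347). These groups were paired by event and number, and in the paired fit both passed: the plus strand ratio was 1.44-fold lower in fully green leaves (sign-flip, exact permutation, adjusted p = 0.0260) and the minus strand ratio 1.32-fold lower (adjusted p = 0.0391). Each was lower in 8 of 9 pairs, the exception being MK016 number 4. Fully red leaves and always red plants did not differ beyond the spread in either ratio (adjusted p = 0.538 and 0.114), with always red medians of 60.7% on the plus and 11.2% on the minus strand.

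In dcl1234, 18 to 20 nt reads exceeded 21 nt reads on the plus strand and came close to them on the minus strand. The plus strand ratio ranged from 243 to 281% (median 259%) in dcl1234, against 42.4 to 87.7% (median 60.7%) in always red Col-0. The minus strand ratio ranged from 77.5 to 113% (median 98.4%) in dcl1234, against 9.74 to 12.5% (median 11.2%) in Col-0. The groups did not overlap on either strand. The ratio was 4.18-fold higher in dcl1234 on the plus strand (95% interval 3.57 to 4.89; exact permutation adjusted p = 6.62e-05) and 8.03-fold higher on the minus strand (95% interval 7.20 to 8.95; adjusted p = 6.62e-05). The 21 nt reads themselves were 2.45-fold lower in dcl1234 on the plus strand and 15.3-fold lower on the minus strand (exact permutation adjusted p = 0.000652 and 0.000104). Minus strand reads of 18 to 20 nt were also lower, by 1.90-fold, so the higher ratio there was no gain of short reads. A sum over 3 lengths at an even level would be 3 times the level of 1 length, and the plus strand ratio in dcl1234 came near that value. With 1 mean per event the adjusted p of the ratio was 0.106 on both strands.

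Under ZmUBQ the plus strand ratio ranged from 7.27 to 10.5% (median 8.39%) in fully green leaves and from 16.6 to 89.1% (median 65.0%) in fully red leaves. The minus strand ratio ranged from 6.82 to 10.8% (median 7.79%) in fully green leaves and from 10.5 to 40.3% (median 22.97%) in fully red leaves. The plus strand ranges did not overlap, the minus strand ranges met at their edges, and the green member was lower in 7 of 7 pairs on each strand. The ratio was 6.61-fold lower in green leaves on the plus strand (95% interval 4.02 to 9.89) and 2.74-fold lower on the minus strand (95% interval 1.86 to 3.95), each with exact permutation adjusted p = 0.00194, and 0.175 with 1 mean per event. Fully green leaves of both promoters had plus strand ratios of 8.75 ± 1.17% (ZmUBQ, SD, n = 7) and 8.77 ± 3.24% (35S, SD, n = 9), within the spread of each other (adjusted p = 0.765). The same held on the minus strand (adjusted p = 0.905).

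Between promoters in red tissue, the minus strand ratio was higher under ZmUBQ in always red plants and near the threshold in fully red leaves. ZmUBQ fully red leaves had a 1.58-fold higher minus strand ratio than 35S fully red leaves, just short of the threshold (95% interval 1.07 to 2.32; exact permutation adjusted p = 0.0508). It passed when any of 6 libraries was left out: 35S MK016 number 5, MK025 number 1, MK040 number 2, MK042 number 3 or MK044 number 3, or ZmUBQ MK054 number 3 (adjusted p from 0.00917 to 0.0485). ZmUBQ always red plants held 13.6, 21.5, 23.1 and 81.3% on the minus strand, all above the 35S range, and were 2.47-fold higher (95% interval 1.62 to 3.81; exact permutation adjusted p = 0.00209). With 1 library left out the log2 difference ran from 0.81 to 1.59 around 1.31 and stayed past the threshold. The call ended with 1 mean per event (adjusted p = 0.106) and after subtraction of the 25 to 28 nt level (0.85, adjusted p = 0.139). The plus strand ratio differed in neither comparison beyond the spread (adjusted p = 0.765 and 0.392).

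Whether the short reads moved with 21 nt reads from library to library was then examined within groups, as the slope of log2 18 to 20 nt RPM on log2 21 nt RPM of the same strand. A slope of 1 is movement by equal factors and a slope of 0 is a level that does not move. Both measures share a library's mapped total and the pseudocount, and the 16 relations (8 groups of at least 6 libraries, 2 strands) were adjusted together. On the minus strand of fully red 35S leaves, 21 nt reads spanned a 77.5-fold range and 18 to 20 nt reads followed with a slope of 0.97 (95% interval 0.75 to 1.20). That slope differed from 0 (permutation adjusted p = 8e-05) and not from 1 (adjusted p = 0.801). Pearson's r was 0.947 and Spearman's rho 0.940 (permutation adjusted p = 8e-05 and 5.3e-05), and r was 0.952 without MK044 number 3 and MK016 number 5, the libraries farthest from the median.

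On the plus strand of the same leaves the short reads moved less. Over a 10.6-fold range of 21 nt reads the slope was 0.34 (95% interval 0.10 to 0.58), which differed from 0 (permutation adjusted p = 0.0129) and from 1 (adjusted p = 0.00096). Pearson's r was 0.690 and Spearman's rho 0.659 (permutation adjusted p = 0.0129 and 0.0251). Without MK016 number 5 and MK040 number 2, r was 0.451 and no longer passed (permutation p = 0.162), so the relation with 21 nt reads rests on those libraries, whereas the slope without them still differed from 1 (0.23, permutation p = 0.00036). The slope was no longer past the threshold against 0 for 18 nt reads alone (0.17, permutation adjusted p = 0.158) or with 1 mean per event (0.18, exact permutation adjusted p = 0.249). The slopes of the 2 strands were not tested against each other.

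In the other groups of Col-0 35S libraries the slopes lay nearer 1. On the minus strand they were 0.87 in fully green leaves, 0.89 in green parts, 0.94 in red parts and 0.88 in always red plants, each different from 0 (adjusted p from 8e-05 to 0.0271) and none from 1 (adjusted p from 0.309 to 0.801). On the plus strand they were 0.87 in fully green leaves, 0.83 in green parts and 0.92 in always red plants, each different from 0 (adjusted p from 0.000457 to 0.00922) and none from 1 (adjusted p from 0.647 to 0.801). Red parts had a plus strand slope of 0.74 (95% interval 0.57 to 0.91) that differed from 0 (adjusted p = 0.00012) and just missed the threshold against 1 (permutation adjusted p = 0.0566). That last call passed without red parts of MK040 number 2 (adjusted p = 0.0279). Pearson's r in these 8 relations ran from 0.746 to 0.970 and Spearman's rho from 0.698 to 0.964 (permutation adjusted p of at most 0.0271 and 0.0268). Fully green leaves and the plus strand of always red plants no longer passed without the libraries farthest from the median (r from 0.583 to 0.756, permutation p from 0.0536 to 0.175). The minus strand slope of fully green leaves also missed the threshold without MK040 number 1, MK042 number 3 or MK044 number 3 (adjusted p = 0.0718, 0.0527 and 0.0875).

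The mutant gave little room for such a relation, because 21 nt reads spanned only a 1.34-fold range on each strand in dcl1234. Plus strand reads of 18 to 20 nt followed 21 nt reads there with a slope of 0.96 (95% interval 0.51 to 1.40; exact permutation adjusted p = 0.00679 against 0 and 0.837 against 1). Pearson's r was 0.910 and Spearman's rho 0.810 (exact permutation adjusted p = 0.00679 and 0.0268), and r was 0.937 without the 2 libraries farthest from the median (exact permutation p = 0.0139). Minus strand reads had a slope of 0.01 (95% interval -1.11 to 1.19; adjusted p = 0.985 against 0 and 0.299 against 1), an interval that holds both 0 and 1. On the minus strand, a level that stays the same could therefore not be told from one that follows 21 nt reads. On the plus strand the short reads moved with 21 nt reads, though only over this narrow range.

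Under ZmUBQ, fully green leaves had slopes of 0.95 on the plus strand and 0.98 on the minus strand over a 13.9-fold and a 14.4-fold range of 21 nt reads. Both differed from 0 (exact permutation adjusted p = 0.000457) and not from 1 (adjusted p = 0.801), with r of 0.991 and 0.981 and rho of 1.00 each (exact permutation adjusted p = 0.000457 for r and 0.00106 for rho). Without the 2 libraries farthest from the median, r was 0.970 and 0.931 (exact permutation p = 0.0167 each). In ZmUBQ fully red leaves the plus strand slope was 0.07 (95% interval -0.29 to 0.57; exact permutation adjusted p = 0.724 against 0 and 0.0698 against 1). The minus strand slope there was 0.50 (95% interval 0.15 to 0.91; exact permutation adjusted p = 0.0161 against 0 and 0.11 against 1). That call ended without MK054 number 3 or MK056 number 5 (adjusted p = 0.148 and 0.0556). In these leaves MK054 number 3 had 171 RPM of plus strand 21 nt reads, the highest of its group, and 28.3 RPM of 18 to 20 nt reads, the group median.

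The plus strand level of red libraries was also set beside that of the longest reads, a measure chosen after seeing the data and given without a test. Per length, plus strand reads of 18 to 20 nt stood at 1.03 ± 0.0777 times the mean level of 25 to 28 nt reads in dcl1234 (SD, n = 8) and at 1.18 ± 0.152 times in always red plants (SD, n = 11). In fully green leaves the median was 6.59 and the range 4.04 to 9.73, against a median of 1.39 and a range of 0.923 to 5.30 in fully red leaves, where MK040 number 2 was the highest. Red parts had a median of 4.56 and a range of 1.29 to 51.6, against a median of 8.37 and a range of 5.31 to 23.01 in green parts. In ZmUBQ fully green leaves the median was 11.6, against 1.40 in ZmUBQ fully red leaves. By the median, the short plus strand reads of fully red leaves and always red plants lay close to the level of the longest reads, while those of red parts lay above it and 1 fully red library reached the range of fully green leaves. The 21 nt reads of always red plants stood at 6.00 ± 1.52 times that level (SD, n = 11).

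After that level was subtracted from each length, 18 to 20 nt reads on the plus strand amounted to a median of 6.79% of 21 nt reads in fully green leaves, 12.2% in fully red leaves and 9.52% in always red plants, against raw medians of 8.31, 48.1 and 60.7%. With the subtraction the plus strand ratio of fully green against fully red leaves was no longer past the threshold (-0.61 on the log2 scale, permutation adjusted p = 0.511). Nor was that of green parts against red parts (-0.18, adjusted p = 0.608), and that of red parts against fully red leaves turned (0.07, adjusted p = 0.894). Under ZmUBQ the plus strand ratio of fully green against fully red leaves stayed past the threshold (-1.26, exact permutation adjusted p = 0.00777). Without the subtraction that ZmUBQ difference was -2.72. On the minus strand, where 25 to 28 nt reads were few, the medians after subtraction were 7.29% in fully green leaves, 13.3% in fully red leaves and 10.6% in always red plants. Subtraction left 1 fully red, 4 of 8 dcl1234, 1 always red and 1 ZmUBQ always red library at 0 on the plus strand. It also moved the plus strand slopes, to 1.32 in fully red leaves, no longer different from 1 (permutation adjusted p = 0.731), and to 0.05 in always red plants, no longer different from 0 (permutation adjusted p = 0.945). The plus strand slope of fully red leaves thus depends on this choice.

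The make-up of the short reads by length differed between strands as well. Reads of 18 nt made up 14.8 ± 1.85% of plus strand 18 to 20 nt reads in fully green leaves, 26.2 ± 3.99% in fully red leaves, 31.7 ± 1.85% in dcl1234 and 29.4 ± 2.17% in always red plants. Among minus strand short reads, 18 nt reads made up 16.8 ± 2.63% in fully green leaves, and in dcl1234 11.9 ± 2.43% against 18.1 ± 2.28% in always red plants. Reads of 20 nt held 50.0 to 61.2% of minus strand short reads in dcl1234, against 33.8 to 45.5% in always red plants, and the ranges did not overlap. These shares were not tested.

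Some libraries also stood out from their group in level or ratio. MK040 number 2 had the highest level in fully green leaves and green parts on both strands, and the highest minus strand ratio in fully green leaves, green parts and red parts, at 18.97, 21.6 and 27.1%. Its plus strand ratio was the highest of fully green leaves, at 15.7%, and the lowest of fully red leaves, at 27.5%. In level, MK040 number 1 came next in fully green leaves (2838 RPM plus, 4034 RPM minus) and in green parts (2359 and 3663 RPM). The event MK040, and not number 2 alone, was thus high in level there. MK016 number 5 had the highest level in red parts and in fully red leaves. Its red parts held 3136 RPM on the plus and 3771 RPM on the minus strand at 7.98 M mapped reads, and its fully red leaves 213 and 263 RPM. That fully red library had a minus strand share of 55.3%, the highest of its group and the single one of 13 pairs above its red parts, at 54.6%.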

How the data were processed

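TRIzol served for RNA extraction from leaves, and TruSeq Small RNA libraries were prepared after enrichment by size, per the labels' protocols. The submitters' processing notes name the TAIR10 build. The aligner, read filters and treatment of reads with several matches are not given in the sources used here. Each file gives the count of reads that the authors assigned to the RUBY sequence by length and strand, without normalization. RPM was made by the authors as count divided by mapped reads times 1000000, and 0 deposited values deviated by more than a relative 1e-06. Combinations absent from a file (10 in 4 files) were set to 0.

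RPM of 18, 19 and 20 nt was summed per strand, and log2 taken after adding 1 RPM. Permutation tests (100000 resamples where not exact, for which 1e-05 is the smallest p) were adjusted over 20 levels, 10 strand shares, 20 ratios, 220 single classes, 16 slopes and 5 promoter contrasts, and adjusted p under 0.05 was called. Intervals hold the values that the same test did not reject. Slopes were least squares. The members, lists and tests were chosen with earlier results of these data known. Named features were the 6 classes, their sums and 21 nt reads. Named libraries were the highest or lowest of a group, those far from their group, those against their pairs, and those that change a call. Python 3.11.15, numpy 2.4.6, pandas 2.3.3, scipy 1.17.1 and edgeR 4.0.16 were used, the last as an alternative only, because 22 classes are few for estimating a shared spread.

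Same-numbered libraries of 1 event were checked as pairs by correlating their deviations from the group means over all classes. Fully green leaves and green parts correlated above 0.1 in 9 of 9 pairs (lowest 0.319), and count as paired. The other relations did so in 4 of 9, 7 of 13, 10 of 13 and 3 of 7 pairs. Among 402 pairs of libraries within groups, a chi-squared test on counts did not separate 3. Each joined different events, so they were kept apart, and averaging them was an alternative. Alternatives were a pseudocount of 0.1 or of 10 RPM, setting to 0 what lay under 1 RPM, scaling to reads off the transgene, ranks, 1 mean per event, the replicate block, 20 nt or 18 nt alone, libraries under 8 M left out, each library left out, the dcl1234 mean subtracted, and edgeR. Averaging and subtraction of the 25 to 28 nt level were chosen after seeing the data.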

Additional observations from a re-analysis of the deposited data

Results flagged for a closer look

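Of 25 checks for a library far from its group (groups of 4 to 10 libraries), 2 met the criterion, and chance alone would do so in about 1 of 20. Both came from the ZmUBQ event MK054, number 3. Its fully green library had a minus strand share of 18 to 20 nt reads of 56.3%, where the other 6 lay between 58.5 and 59.5%. Its share has a 95% Wilson interval of 54.3 to 58.2%, which lies below the other 6. The same library had the lowest 18 to 20 nt level of its group on both strands, at 55.6 RPM (plus) and 71.5 RPM (minus). Its fully red library had a plus strand ratio to 21 nt reads of 16.6%, where the other 6 lay between 50.5 and 89.1%. That library had 171 RPM of 21 nt plus strand reads, the highest of its group, and a minus strand share of 43.9%, also the highest. Without it, the minus strand ratio of ZmUBQ fully red against 35S fully red leaves was 0.84 on the log2 scale (permutation adjusted p = 0.00917).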

How the results depend on the processing

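Of 2792 values recomputed under alternatives to the 97 results, 2611 kept their direction and their side of the threshold (counts: within 1.5 times) and 181 did not, of which 72 turned. Scaling to reads off the transgene and a pseudocount of 0.1 RPM each left all 97 on their side. Leaving out single libraries did so in 1647 of 1728 cases. Few minus strand reads limit red tissue and dcl1234, and the number of events limits every group. Below, levels and ratios are log2 differences, shares are differences in percentage points, and a slope is against 0 unless given less 1. With 1 mean per event, fewer values enter the test. The causes of the changes were not tested.

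A pseudocount of 10 RPM turned the plus strand slope less 1 of dcl1234 (0.0896). It brought past the threshold the minus strand ratios of red parts against fully red leaves (-0.61) and of ZmUBQ against 35S fully red leaves (0.87). The slopes less 1 of plus strand red parts (-0.28), minus strand always red plants (-0.47) and ZmUBQ fully red leaves (-0.94 plus, -0.66 minus) then passed too. With values under 1 RPM set to 0, the minus strand slope of dcl1234 (-0.083) and the slope less 1 of always red plants (0.0043) turned. On ranks the minus strand slope of dcl1234 turned (-0.10), and the minus strand ratio of ZmUBQ against 35S fully red leaves passed (6.26 ranks). The plus strand level of red parts against fully red leaves (6.08 ranks), the share of ZmUBQ against 35S always red plants (4.09 ranks) and the minus strand slope of ZmUBQ fully red leaves (0.75) no longer passed. A slope of 1 was not tested on ranks.

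With 1 mean per event, 3 of 6 members were called for red parts against fully red leaves (54.5% of all classes), 3 for fully red leaves against always red plants (18.2%), 3 for ZmUBQ against 35S fully red leaves (40.9%) and 2 for ZmUBQ against 35S fully green leaves (72.7%). For dcl1234 against always red Col-0, ZmUBQ fully green against fully red leaves, and ZmUBQ against 35S always red plants, 0 members and 0 of 22 classes were called by the permutation test. At an unadjusted p under 0.05 there were 2, 0 and 1 members, and the smallest p these numbers of events allow is 0.0357, 0.10 and 0.0357. Levels no longer past the threshold were those of red parts against fully red leaves (1.05 plus), fully red leaves against always red plants (1.45 minus), dcl1234 (0.70 plus, -0.95 minus) and ZmUBQ fully green against fully red leaves (2.87 plus, 4.60 minus). Those of ZmUBQ against 35S fully red leaves (-1.54 minus) and always red plants (-1.17 plus) also missed it. Shares no longer past it were those of dcl1234 (-11.6), ZmUBQ fully green against fully red leaves (28.99), and ZmUBQ against 35S in fully green leaves (-2.20) and always red plants (8.54). Ratios no longer past it were those of green against red parts (-0.59 plus), dcl1234 (2.02 plus, 2.97 minus), ZmUBQ fully green against fully red leaves (-2.66 plus, -1.45 minus) and ZmUBQ against 35S always red plants (1.31 minus). The plus strand slope of fully red leaves missed it as well (0.18). The plus strand ratio of ZmUBQ against 35S fully red leaves (-0.057) and the slopes less 1 of fully green leaves (0.0091 minus) and always red plants (0.28 plus) turned. The plus strand slope less 1 of red parts passed (-0.36).

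With the replicate block, which counts as a pairing for fully green leaves against green parts, the ratios of these groups passed (-0.53 plus, -0.40 minus) and their share turned (-0.192). It changed no other call. The other groups that share events and numbers did not correlate in every pair.

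For 20 nt reads alone, the shares of fully green leaves against green parts (-0.426) and ZmUBQ against 35S fully red leaves (-1.51) turned. So did the ratios of ZmUBQ against 35S fully green leaves (-0.17 plus, -0.27 minus), the minus strand slope of dcl1234 (-0.49) and its plus strand slope less 1 (0.041). The shares of ZmUBQ against 35S fully green leaves (-3.08) and always red plants (5.76), and the plus strand ratio of green against red parts (-0.55), no longer passed. For 18 nt reads alone, the plus strand slope of ZmUBQ fully red leaves (-0.093) and the minus strand slope less 1 of ZmUBQ fully green leaves (0.025) turned. The minus strand ratios of red parts (-0.79) and ZmUBQ fully red leaves (1.00) against 35S fully red leaves passed, as did the slopes less 1 of red parts (-0.35 plus) and ZmUBQ fully red leaves (-1.09 plus, -0.65 minus). The plus strand level of red parts against fully red leaves (0.76), the share of ZmUBQ against 35S fully green leaves (-0.92), and the slopes of fully green leaves (0.93 minus), fully red leaves (0.17 plus) and dcl1234 (0.73 plus) no longer passed.

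Without libraries under 8 M mapped reads, the share of ZmUBQ against 35S fully red leaves (-1.69), the minus strand ratio of ZmUBQ against 35S fully green leaves (-0.0031) and the minus strand slopes less 1 of fully red leaves (0.20) and red parts (0.11) turned. The share of fully red leaves against always red plants (12.7) and the minus strand ratio of ZmUBQ against 35S fully red leaves (0.74) passed. Averaging libraries that the chi-squared test did not separate turned the share of ZmUBQ against 35S fully red leaves (-0.856) and the minus strand slope of dcl1234 (-0.57). By edgeR the plus strand level of green against red parts missed the threshold (1.28).

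Subtracting the dcl1234 mean set the plus strand level to 0 in 1 of 13 red parts, 5 of 13 fully red and 9 of 11 always red libraries, so values that use these groups rest on clipped data. It turned the plus strand ratios of fully green against fully red leaves (0.46), green against red parts (0.93) and fully red leaves against always red plants (0.95), and the minus strand ratio of red parts against fully red leaves (0.041). The slopes less 1 of fully red leaves (0.21 plus, 0.22 minus), green parts (0.012 plus), red parts (0.46 plus) and always red plants (0.56 minus) turned as well. The minus strand ratio of fully red leaves against always red plants passed (0.76). The ratios of fully green (-0.41 minus) and red parts (-0.16 plus) against fully red leaves, and the plus strand slope of always red plants (0.12), no longer passed. Subtracting the 25 to 28 nt level, chosen after seeing the data, set 4 of 8 dcl1234 libraries to 0 on the plus strand. It turned the plus strand ratios of red parts against fully red leaves (0.075) and fully red leaves against always red plants (0.35), and the slopes less 1 of fully red leaves (0.32 plus) and dcl1234 (2.02 plus, 1.49 minus). The plus strand ratios of fully green against fully red leaves (-0.61) and green against red parts (-0.18), the minus strand ratio of ZmUBQ against 35S always red plants (0.85), and the plus strand slopes of always red plants (0.047) and dcl1234 (3.02) no longer passed.

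With single libraries left out, the share ranged from 8.32 to 12.7 for fully red leaves against always red plants, from -0.095 to 0.807 for fully green leaves against green parts, and from -2.68 to -1.83, -2.10 to 2.74 and 5.87 to 11.8 for ZmUBQ against 35S fully green, fully red and always red plants. Ratios ranged from -0.83 to -0.60 for green against red parts (plus), from 0.52 to 0.84 for ZmUBQ against 35S fully red leaves (minus), and from -0.021 to 0.19 (plus) and -0.059 to 0.17 (minus) for ZmUBQ against 35S fully green leaves. The minus strand level of ZmUBQ against 35S fully red leaves ranged from -1.87 to -1.40. Promoter differences of the green to red contrast ranged from -0.53 to 0.014 (plus level), -0.78 to 0.13 (minus level) and -0.0258 to 6.50 (share). Slopes ranged from 0.78 to 1.00 for fully green leaves (minus), -0.15 to 0.18 for dcl1234 (minus), and -0.011 to 0.44 (plus) and 0.44 to 0.67 (minus) for ZmUBQ fully red leaves. Slopes less 1 ranged from -0.15 to 0.21 (plus) and -0.16 to 0.31 (minus) for always red plants, -0.33 to -0.18 (plus) and -0.088 to 0.019 (minus) for red parts, -0.085 to 0.20 (minus) for fully red leaves, -0.14 to 0.11 (plus) for dcl1234 and -0.10 to 0.038 (minus) for ZmUBQ fully green leaves.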

Other observations

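Within a group, libraries with a high ratio of 18 to 20 nt to 21 nt reads on the plus strand tended to have a high ratio on the minus strand in green tissue. This relation was chosen after seeing the data, over 8 groups of at least 6 libraries. Pearson's r was 0.944 in fully green 35S leaves (n = 9), 0.972 in green parts (n = 13) and 0.938 in ZmUBQ fully green leaves (n = 7), with Spearman's rho of 0.967, 0.945 and 0.929 (permutation adjusted p from 8e-05 to 0.00741 for r and from 0.00024 to 0.018 for rho). Without the 2 libraries farthest from the median, r was 0.834, 0.971 and 0.989 (permutation p = 0.0218, 4e-05 and 0.0167). In red parts r was 0.682 and rho 0.593 (n = 13; permutation adjusted p = 0.0205 and 0.0727), and without the 2 farthest libraries r was 0.524 (permutation p = 0.0985), so that relation rests on them. In ZmUBQ fully red leaves r was 0.867 and rho 0.571 (n = 7; exact permutation adjusted p = 0.0298 and 0.320).

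In fully red 35S leaves r was 0.190 (n = 13), in always red plants 0.228 (n = 11) and in dcl1234 0.0376 (n = 8), none past the threshold (permutation adjusted p from 0.616 to 0.920). The rho of these groups was -0.0879, 0.255 and 0.214 (permutation adjusted p from 0.602 to 0.778). In fully red leaves, without MK044 number 3 and MK025 number 1, r was -0.668 (permutation p = 0.0273). Differences between these r values were not tested.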
